A study of Homo sapiens with 12 samples.

Results

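Matrix proteases and the plasminogen activators degrade the extracellular matrix around tumor cells. Matrix metalloproteinases (MMPs) are mostly secreted as inactive precursors, tissue inhibitors of metalloproteinases (TIMPs) bind and block them, and the urokinase encoded by PLAU converts plasminogen to plasmin at the cell surface, where it is held by its receptor PLAUR. Plasmin in turn cleaves matrix and several MMP precursors, and many of these genes respond to cytokines in breast cancer cells. The 9 genes described here were chosen by exact symbol: the collagenase MMP1, the stromelysin MMP3, the gelatinase MMP9, the membrane-anchored MMP14, the inhibitors TIMP1, TIMP2 and TIMP3, and PLAU and PLAUR. All 9 were among the 12451 gene entries used, and 8 of them were among the 11303 genes tested, since MMP9 did not reach an RPKM of 1 in 3 libraries (RPKM, reads scaled to exon length and library size).

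The data were RNA-seq counts from MDA-MB-231-ERβ cells, a line derived from the triple negative breast cancer (TNBC) line MDA-MB-231 that carries a dox-inducible transgene for full length ERβ, encoded by ESR2. All groups were grown with dox. For E2+ TNFα it is stated in the study's methods and not in the labels. The vehicle and TNFα groups received vehicle for 5 days, the latter with 20 ng/ml TNFα for the final 3 h. The E2 and E2+ TNFα groups received 1 nM E2 for 5 days, the latter with the same TNFα exposure. Each group had 3 replicates from separately plated dishes of 1 line. Reads assigned to genes came to 35.8 to 39.9 M in the vehicle libraries, 19.5 to 30.5 M with TNFα, 7.65 to 15.8 M with E2 and 16.8 to 36.7 M with E2+ TNFα (M, mega). The shallowest was E2 replicate 2, at 7.65 M. No group lacked dox, so the levels describe cells that express ERβ throughout. ESR2 was read at 472 ± 14.8, 254 ± 26.7, 306 ± 14.7 and 448 ± 53.1 CPM (SD, n = 3) in the vehicle, TNFα, E2 and E2+ TNFα groups (CPM, read counts scaled to TMM-adjusted library size). Of the markers of the line, VIM was read at 1155 to 1547 CPM in group means, and ERBB2, which is not amplified in TNBC, at 93.7 to 108 CPM. The CPM of the 4 listed markers of the line summed to 3616 to 3724 with vehicle and 4737 to 4838 with TNFα. The sums were 4116 to 4494 with E2 and 4029 to 4723 with E2+ TNFα. Relative to vehicle, log2 fold changes with TNFα were -0.42 for VIM, 0.59 for AXL, 1.12 for CD44 and 0.16 for CAV1. With E2 they were -0.09, 0.39, 0.25 and 1.15, in that order. ESR1 and PGR were not analysed here. The leukocyte genes PTPRC and CD3E and the endothelial genes PECAM1, VWF and CDH5 were not analysed here either, whereas CD68, a lysosomal protein of macrophages that tumor lines also express, was read at 89.0 to 99.1 CPM in group means.

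The vehicle libraries stood apart from the others. Their scores on the first principal component lay between -113 and -94.5, and those of the other 9 libraries between 12.4 and 65.9. Fold changes relative to vehicle also followed the GC content of the exons across genes, with Spearman's rho of 0.655 for E2, 0.706 for TNFα and 0.665 for E2+ TNFα, against -0.210 where E2+ TNFα was set against TNFα alone and -0.331 where it was set against E2 alone. For the interaction of E2 and TNFα, the TNFα effect with E2 minus that without E2, rho was -0.689. These coefficients are across genes within one set of libraries and describe those libraries. The labels name no batch, so a batch of the vehicle libraries and a change shared by the treated groups cannot be told apart. In the comparisons of E2+ TNFα with either single treatment, the difference of group means leaves out the vehicle libraries. The filter, the scaling and the spread behind SE and p come from all groups. The main fold changes of members relative to vehicle are set beside those of genes of similar exon GC content. For the genes outside the 9 members, removal of the GC and length trend was tried as an alternative. In the text a gene is called significantly induced or repressed where the absolute log2 fold change was at least 1.5, p was below 0.05 and the Benjamini-Hochberg adjusted p was at most 0.1, all in the quasi-likelihood F test of edgeR over 11303 genes.

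RefSeq promoter windows were found for 5 of the 9 genes (PLAU, PLAUR, TIMP1, TIMP3 and MMP14). Shown here is the sequence before the listed starts of PLAU, which has a pair of them. PLAU was the most changed of the 8 tested genes in E2+ TNFα relative to TNFα. Also shown are TIMP1 and MMP14, which changed less, and MMP10, a neighbour of MMP1. The PLAU entry spans chr10:73909182-73917501, so both PLAU stretches lie inside it, downstream of the start of its first exon. Those of TIMP1, MMP14 and MMP10 end just before the first exon of their entries. The windows of PLAUR and TIMP3 lie in annotated exons and are not shown. Those of the others were trimmed before any annotated exon of the gene inside the window. The printed stretch thus ends before the RefSeq start, by 5 and 28 bases at the upstream and downstream starts of PLAU, 145 for TIMP1 and 52 for MMP14, and at the start itself for MMP10. Each runs 5′ to 3′ on the gene's strand in GRCh38.p14. Capitals mark a GC box (GGGCGG), an AP-1 motif (TGANTCA) or a TATA box (TATAAA).
PLAU, upstream start, chr10:73910360-73910604 (+): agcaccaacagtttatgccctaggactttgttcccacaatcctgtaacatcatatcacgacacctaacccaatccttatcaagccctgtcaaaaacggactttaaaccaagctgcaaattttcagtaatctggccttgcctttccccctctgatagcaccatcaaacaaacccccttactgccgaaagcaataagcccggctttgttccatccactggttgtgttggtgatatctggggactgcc
PLAU, downstream start, chr10:73910882-73911103 (+): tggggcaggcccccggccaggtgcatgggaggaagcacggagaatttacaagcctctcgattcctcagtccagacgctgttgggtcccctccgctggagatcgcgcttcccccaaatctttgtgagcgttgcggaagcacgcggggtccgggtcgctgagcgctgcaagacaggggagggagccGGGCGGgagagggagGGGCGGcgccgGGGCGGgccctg
TIMP1, chrX:47582186-47582290 (+): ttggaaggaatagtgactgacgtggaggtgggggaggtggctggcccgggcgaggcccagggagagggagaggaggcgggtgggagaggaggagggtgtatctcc
MMP14, chr14:22836335-22836532 (+): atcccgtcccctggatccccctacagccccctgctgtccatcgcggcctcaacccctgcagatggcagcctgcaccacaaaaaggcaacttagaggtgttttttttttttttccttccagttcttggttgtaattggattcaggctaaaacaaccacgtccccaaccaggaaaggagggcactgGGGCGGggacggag
MMP10, chr11:102780629-102780878 (-): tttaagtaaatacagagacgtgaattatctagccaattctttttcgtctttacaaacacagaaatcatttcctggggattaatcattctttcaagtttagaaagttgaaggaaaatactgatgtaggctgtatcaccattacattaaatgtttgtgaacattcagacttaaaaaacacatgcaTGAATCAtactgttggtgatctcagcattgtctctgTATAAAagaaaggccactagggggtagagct
The window at the downstream start of PLAU held 3 GC boxes, whose first bases lie 66, 51 and 40 bases upstream of the RefSeq start, and 68.9% of its bases were G or C, against 46.9% at the upstream start, where no motif was found. MMP14 held 1 GC box, with its first base 66 bases upstream of the RefSeq start. The 105 bases of TIMP1 shown held no motif, but the whole window of 250 bases before its start held 2 GC boxes. The whole windows not shown held 5 GC boxes for TIMP3 and 1 AP-1 motif for PLAUR. MMP10 held an AP-1 motif 67 bases and a TATA box 31 bases upstream of its start. Of the 35116 promoters in the RefSeq table, each searched over 250 bases, 42.6% held the GC box on either strand, 6.57% the AP-1 motif and 10.7% the TATA box. The NFκB motif (GGGA, any base, TT, any base, CC) and the estrogen response element (GGTCA and TGACC with 3 bases between them) were searched on both strands too and were in none of the windows shown, beside 1.26% and 0.0399% of all promoters. No match overlapped another. A match is a description of the letters, and a lack of one says only that these letters are not in the window.

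PLAU, the urokinase gene, was significantly induced by TNFα and was lower when E2 was also present. It was read at 156, 154 and 151 CPM with vehicle, 1139, 992 and 1081 CPM with TNFα, 174, 203 and 198 CPM with E2, and 254, 235 and 314 CPM with E2+ TNFα. All 3 TNFα libraries were above every other library. In bulk RNA, fewer cells of a type and less RNA per cell cannot be told apart, here and in all results that follow. Relative to vehicle, PLAU was induced by TNFα by a log2 fold change of 2.80 (SE 0.13, adjusted p = 2.58e-10, edgeR), a 6.97-fold change. The background for that call was 6.64% of the 11303 genes significantly induced by TNFα. PLAU was the 130th highest of them, and 12 of the 736 other genes within 1 percentage point of its exon GC content had a larger change.

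E2+ TNFα relative to TNFα compares the same TNFα exposure with and without E2, and its difference of means does not use vehicle. In that comparison PLAU was significantly repressed, with a log2 fold change of -2.00 (SE 0.12, adjusted p = 9.26e-09, edgeR). Only 2.01% of the genes were repressed in that comparison, and 7 of the 736 genes of like GC content changed as far or further downward. PLAU was the 101st lowest of the 11303. In each of the 16 alternatives tried the log2 fold change was between -2.13 and -1.91, past the thresholds in all of them. With E2 already present, adding TNFα gave a log2 fold change of 0.48 (SE 0.12, adjusted p = 0.0493, edgeR), under the fold change threshold, where the E2 and E2+ TNFα libraries did not overlap. The effect of TNFα on PLAU differed by a log2 value of -2.32 (SE 0.17, adjusted p = 1.28e-07, edgeR) between cells with and without E2, the interaction of E2 and TNFα, for which 9.29% of all genes were repressed.

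Markers of cell type moved in the same libraries. Of the 4 epithelial markers, CDH1 and KRT8 were induced and EPCAM and KRT18 were not past the thresholds in E2+ TNFα relative to TNFα. CDH1, which encodes E-cadherin, was read at 1.90 ± 0.19 CPM with TNFα and 40.6 ± 5.01 with E2+ TNFα (SD, n = 3), a log2 fold change of 4.41, and KRT8 was 2.83-fold higher. With E2 relative to vehicle, CDH1 (3.70), KRT8 (2.37) and KRT18 (2.23) were induced, and EPCAM was not (0.05, adjusted p = 0.864, edgeR). The CPM of the 4 genes summed to 1060 to 1244 with vehicle, 2034 to 2194 with TNFα, 4752 to 6623 with E2 and 4012 to 5016 with E2+ TNFα, with KRT8 or KRT18 the highest in each library. Of the fibroblast markers, 3 of 4 were in the table, and their CPM summed to 24.5 to 26.9, 22.8 to 24.3, 5.69 to 8.60 and 9.95 to 13.4 in the same groups. Of these, PDGFRB was repressed in E2+ TNFα relative to TNFα (-1.76), COL1A1 gave 0.23 (adjusted p = 0.472, edgeR), and COL1A2 had 0 counts in 2 E2 libraries. The part of these markers in the changes of the protease genes was not tested.

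**Figure D1:**
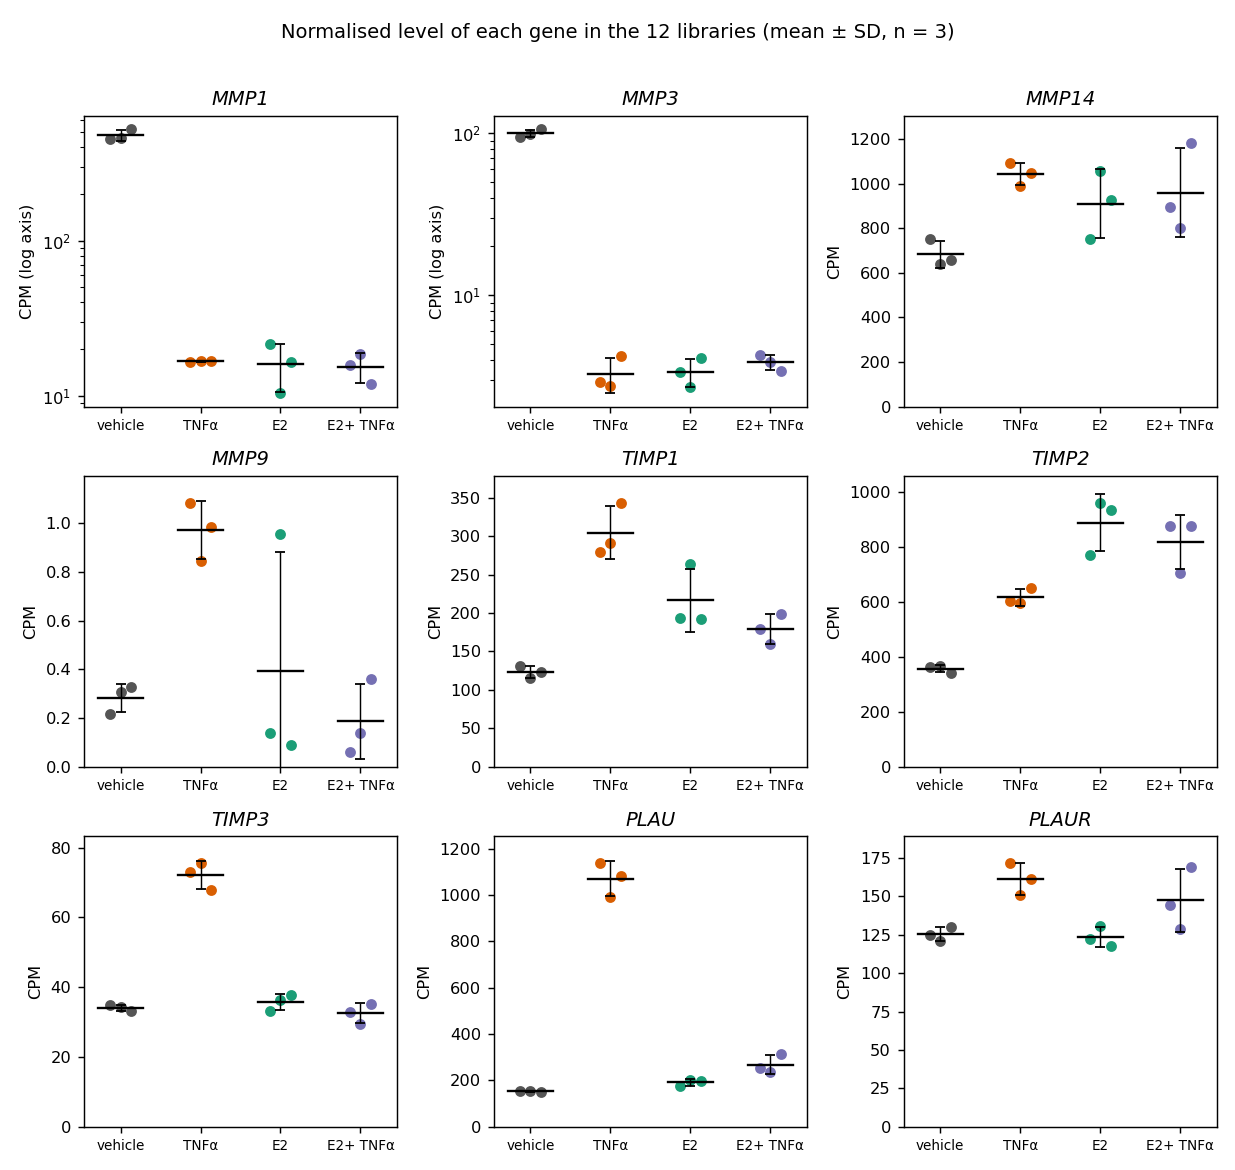
Normalized read counts (CPM, with a log axis for MMP1 and MMP3) of the 9 genes in the 12 libraries, by group; each point is a library, the bar is the mean and the whisker the SD of 3 replicates. PLAU and TIMP3 are highest in the TNFα group, and MMP1 and MMP3 are highest in the vehicle group.

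PLAUR moved little beside its ligand. It was read at 125, 121 and 130 CPM with vehicle, 172, 151 and 162 with TNFα, 122, 131 and 118 with E2, and 144, 129 and 169 CPM with E2+ TNFα. Its log2 fold changes were 0.36 with TNFα (adjusted p = 0.00906, edgeR) and -0.02 with E2 (adjusted p = 0.868) relative to vehicle, and -0.13 (adjusted p = 0.398) for E2+ TNFα relative to TNFα. With TNFα relative to vehicle, 395 of 735 other genes of like GC content had a larger change than PLAUR, and its value turned negative with the unwanted factor removed (-0.22) and with the GC and length trend removed (-0.15). The ratio of PLAU to PLAUR per length of exon was 1.20 ± 0.054 with vehicle, 6.47 ± 0.053 with TNFα, 1.51 ± 0.12 with E2 and 1.77 ± 0.048 with E2+ TNFα (SD, n = 3). The 12 libraries of this ratio fell apart by group, with all TNFα libraries at 6.42 or above and all others at 1.81 or below. Reads from PLAU and the antisense gene C10orf55, which shares 27.5% of the exon bases of PLAU, cannot be told apart where counting did not use strand, and C10orf55 itself had counts of 22, 25 and 22 with vehicle and 130, 106 and 80 with TNFα, at most 0.868% of those of PLAU in any library.

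SERPINB2, an inhibitor of the plasminogen activators, was read at 116 ± 4.33 CPM with vehicle, 101 ± 16.0 with TNFα, 11.4 ± 6.35 with E2 and 14.6 ± 2.92 CPM with E2+ TNFα (SD, n = 3). It was repressed in E2+ TNFα relative to TNFα by a log2 value of -2.79 (SE 0.27, adjusted p = 1.26e-06, edgeR). The tissue-type activator PLAT was read at 156, 277, 171 and 193 CPM and SERPINE2, another inhibitor of urokinase, at 40.7, 34.6, 35.5 and 41.1 CPM in the means of the vehicle, TNFα, E2 and E2+ TNFα groups, in that order. PLAT gave a log2 fold change of -0.52 for E2+ TNFα relative to TNFα (adjusted p = 0.00316, edgeR).

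MMP1 and MMP3, neighbours at the MMP cluster of chromosome 11, were high in the vehicle libraries alone. MMP1 lies at chr11:102789910-102798235 and MMP3 at chr11:102835797-102843611 (hg38, both on the minus strand), 37561 bases apart. MMP1 was read at 452, 458 and 523 CPM with vehicle, then 16.6, 16.6 and 16.7 with TNFα, 21.4, 10.3 and 16.4 with E2, and 15.8, 18.5 and 11.8 CPM with E2+ TNFα. MMP3 was read at 95.3, 99.0 and 106 CPM with vehicle, and between 2.71 and 4.26 CPM in the other 9 libraries. All 9 of these libraries were below every vehicle library for both genes.

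MMP1 was repressed by a log2 value of -4.86 (SE 0.22) with E2, -4.84 (SE 0.22) with TNFα and -4.96 (SE 0.22) with E2+ TNFα relative to vehicle, with adjusted p = 1.68e-10, 2.46e-10 and 1.13e-10 (edgeR). MMP3 was repressed by -4.86, -4.95 and -4.71 in the same comparisons, in that order. The background is high, since 20.6%, 20% and 17.6% of all genes were repressed relative to vehicle by E2, TNFα and E2+ TNFα, while 9.87%, 6.64% and 7.52% were induced. Within 1 percentage point of their exon GC content (43.6% for MMP1 and 44.9% for MMP3), the median gene changed by -1.03 and -0.69 with E2, and 1 of 952 and 1 of 887 other genes had as low a value. With TNFα these were 4 and 2 genes, and with E2+ TNFα 0 and 1. MMP1 kept its call under all 16 alternatives of each comparison relative to vehicle, and its smallest change was -2.84, with E2 after removal of 1 unwanted factor estimated from housekeeping genes. The interaction of E2 and TNFα came to 4.74 (SE 0.29) for MMP1 and 5.10 (SE 0.27) for MMP3, for which 22.5% of all genes were induced. Relative to TNFα alone, E2+ TNFα gave -0.11 (SE 0.20) for MMP1 and 0.24 (SE 0.18) for MMP3.

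**Figure D2:**
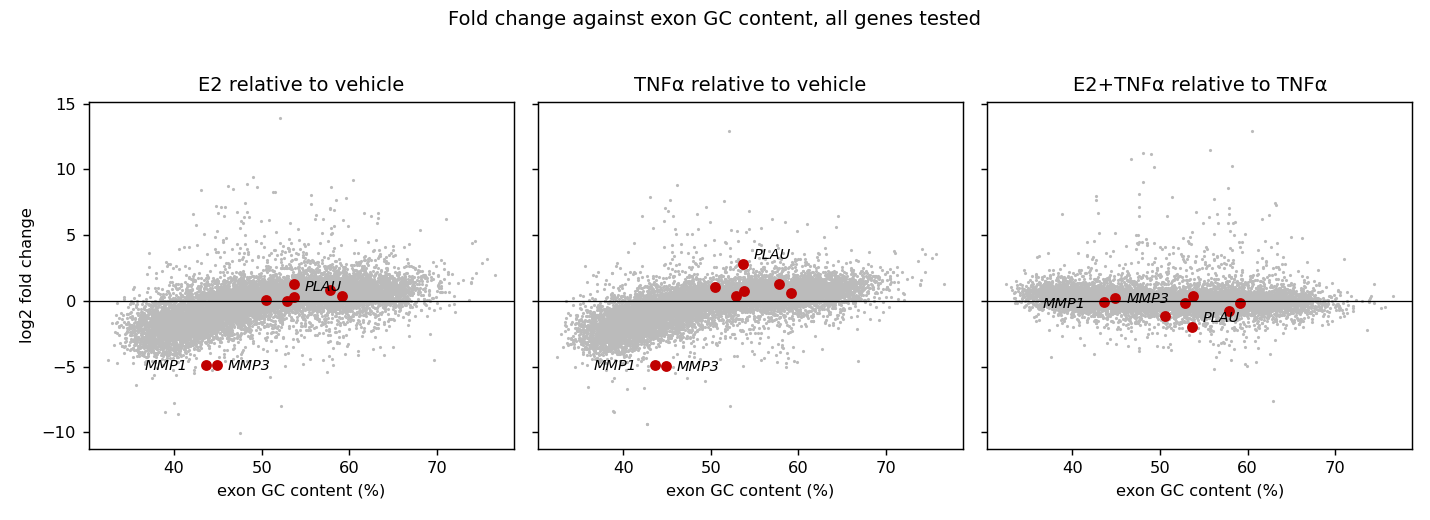
Log2 fold change of every gene tested (grey) against its exon GC content in percent, for E2 and TNFα relative to vehicle and for E2+ TNFα relative to TNFα; the 8 tested genes are red. MMP1 and MMP3 lie near -4.9 in the first 2 panels, below nearly all genes of their GC content, and near 0 in the last.

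Neighbours in the cluster were also highest with vehicle, at low counts, although for MMP10 1 E2 library came close to the lowest vehicle library. MMP10, a stromelysin 9281 bases from MMP1, had 38, 53 and 65 counts with vehicle, 1, 2 and 0 with TNFα, 0, 3 and 10 with E2, and 5, 10 and 5 with E2+ TNFα, and did not reach the RPKM of the test. Scaled to depth, the vehicle libraries lay at 0.917 to 1.42 CPM and the others at 0 to 0.903 CPM, the highest of them E2 replicate 3. MMP3 and MMP10 share 47 of the 50-base stretches in their exons, so a few reads may be placed on either. MMP12, the macrophage elastase, had 73, 78 and 75 counts with vehicle and at most 7 in any other library. It was called repressed in all 3 comparisons relative to vehicle, and its log2 fold change turned positive when the unwanted factor was removed. With the GC and length trend removed, its call for E2 was lost (-1.13, adjusted p = 0.135, edgeR). Only the 3 vehicle libraries brought it past the RPKM filter, so it was tested because it was high there and had to differ.

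MMP14, which anchors to the membrane and activates pro-MMP2 together with TIMP2, was highly expressed in all groups. Its levels were 751, 639 and 659 CPM with vehicle, 1090, 989 and 1050 with TNFα, 749, 1056 and 925 with E2, and 894, 800 and 1184 CPM with E2+ TNFα. The E2 libraries overlapped those of vehicle, with a log2 fold change of 0.41 (SE 0.15), where 504 of 792 other genes of like GC content had a larger change, and which turned negative with the unwanted factor removed (-1.07) and with the GC and length trend removed (-0.31). E2+ TNFα relative to TNFα gave -0.12 (SE 0.15). MMP2, its substrate, was rare with vehicle (36, 29 and 21 counts) and was induced by a log2 value of 4.31 with TNFα (342, 420 and 291 counts) and 3.03 with E2. Its level was 13.3 ± 1.95 CPM with TNFα and 5.30 ± 0.46 with E2+ TNFα (SD, n = 3), a log2 fold change of -1.33 (SE 0.26, adjusted p = 8.49e-04, edgeR), under the fold change threshold.

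MMP9, a gelatinase, was near the limit of detection. Its counts were 9, 13 and 15 with vehicle, 33, 26 and 19 with TNFα, 2, 6 and 1 with E2, and 1, 4 and 12 with E2+ TNFα. In CPM the TNFα libraries lay at 0.847 to 1.08, above the vehicle libraries at 0.217 to 0.328 and the E2+ TNFα libraries at 0.0617 to 0.359, while 1 E2 library of 6 counts reached 0.955 CPM. In a fit without the filter on low values (12443 genes) MMP9 had a log2 fold change of 1.78 with TNFα relative to vehicle (adjusted p = 0.00536, edgeR) and -2.19 in E2+ TNFα relative to TNFα (adjusted p = 0.00836), both past the thresholds, and the interaction was -2.28 (adjusted p = 0.0563, edgeR). Leaving out any 1 library moved the second to between -3.11 and -1.95. The antisense gene SLC12A5-AS1 overlaps 18.4% of the exon bases of MMP9. Reads there cannot be told apart where counting did not use strand.

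The 3 inhibitors differed in their response. TIMP1 was read at 131, 116 and 123 CPM with vehicle, 279, 290 and 343 with TNFα, 193, 263 and 192 with E2 and 179, 160 and 198 CPM with E2+ TNFα. TIMP3, which binds to the matrix, was read at 34.9, 34.3 and 33.2 CPM with vehicle, 72.9, 75.6 and 67.9 with TNFα, 33.3, 36.5 and 37.7 with E2, and 32.9, 29.5 and 35.2 CPM with E2+ TNFα. For both, every TNFα library was above all other libraries. TIMP2 had another order: 363, 366 and 342 CPM with vehicle, 602, 597 and 652 with TNFα, 770, 962 and 934 with E2, and 875, 706 and 877 CPM with E2+ TNFα, with both E2 groups above TNFα alone.

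None of the 3 was significantly regulated in any of the 5 pairwise comparisons. TIMP3 gave 1.08 (SE 0.11, adjusted p = 7.33e-07, edgeR) with TNFα relative to vehicle and -1.15 (SE 0.12, adjusted p = 1.57e-06, edgeR) in E2+ TNFα relative to TNFα, both under the fold change threshold. TIMP1 gave 1.31 (SE 0.14) and -0.77 (SE 0.14) in those comparisons, and TIMP2 gave 0.79 (SE 0.12) and 0.41 (SE 0.12). TIMP2 relative to vehicle gave 1.31 (SE 0.12) with E2. Among genes within 1 percentage point of exon GC content, the change with TNFα relative to vehicle was larger in 121 of 836 for TIMP1 (median 0.61) and in 68 of 681 for TIMP3 (median 0.23), while for TIMP2 the change was larger in 226 of 724 with TNFα (median 0.50) and in 152 of 724 with E2 (median 0.61). In the interaction TIMP1 was called, at -1.58 (SE 0.20, adjusted p = 7.37e-06, edgeR), and that call was lost when TNFα replicate 3 was left out (-1.48) and with 4 other settings. The ratio of MMP14 to TIMP2 in RPKM was 1.95 ± 0.17 with vehicle, 1.72 ± 0.11 with TNFα, 1.04 ± 0.068 with E2 and 1.19 ± 0.17 with E2+ TNFα (SD, n = 3), with no overlap between TNFα and either E2 group. The ratio of TIMP2 to TIMP1 was 1.09 ± 0.070 with TNFα and 2.46 ± 0.15 with E2+ TNFα.

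**Figure D3:**
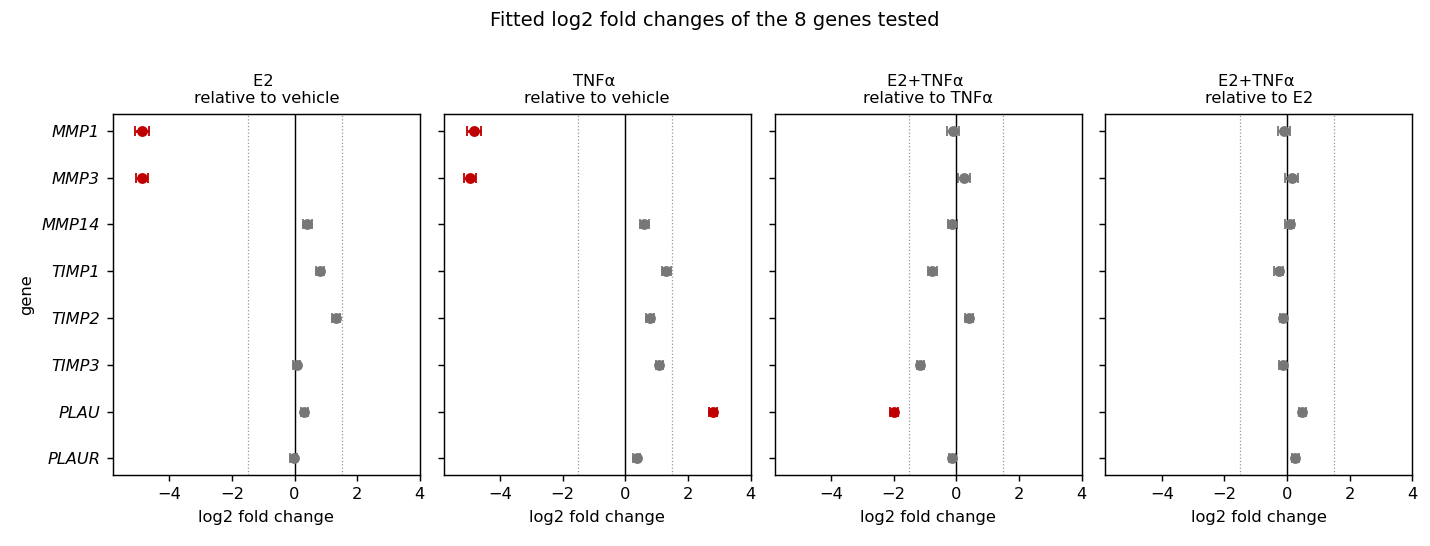
Fitted log2 fold changes of the 8 genes tested in 4 comparisons; whiskers span 1 standard error either side, dotted lines mark a log2 fold change of 1.5 in either direction, and red marks genes past all thresholds. PLAU is the gene in red for E2+ TNFα relative to TNFα, at -2.00, and no gene is red for E2+ TNFα relative to E2.

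Comparing the groups by gene, 2 of the 8 tested genes were repressed and 0 induced by E2 relative to vehicle, 2 were repressed and 1 induced by TNFα, and 2 were repressed and 0 induced by E2+ TNFα. Over all genes, 20.6%, 20% and 17.6% were repressed and 9.87%, 6.64% and 7.52% induced, so 2 of 8 is near the share of repressed genes. For E2+ TNFα relative to TNFα, 1 of 8 was repressed and 0 induced, beside 2.01% of all genes repressed and 3.55% induced. For E2+ TNFα relative to E2, 0 of 8 were called in either direction by edgeR, beside 0.389% of genes induced and 0.0177% repressed, and 2 of the 8, PLAU and PLAUR, had an unadjusted p below 0.05, beside 19.4% of all genes. DESeq2 called 0 there as well. The median log2 fold change of the 8 genes was 0.19, 0.70 and 0.36 relative to vehicle for E2, TNFα and E2+ TNFα, and -0.13 and -0.01 for E2+ TNFα against TNFα and against E2, beside medians over all genes of -0.02, 0.01, -0.03, 0.04 and 0.01.

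**Figure D4:**
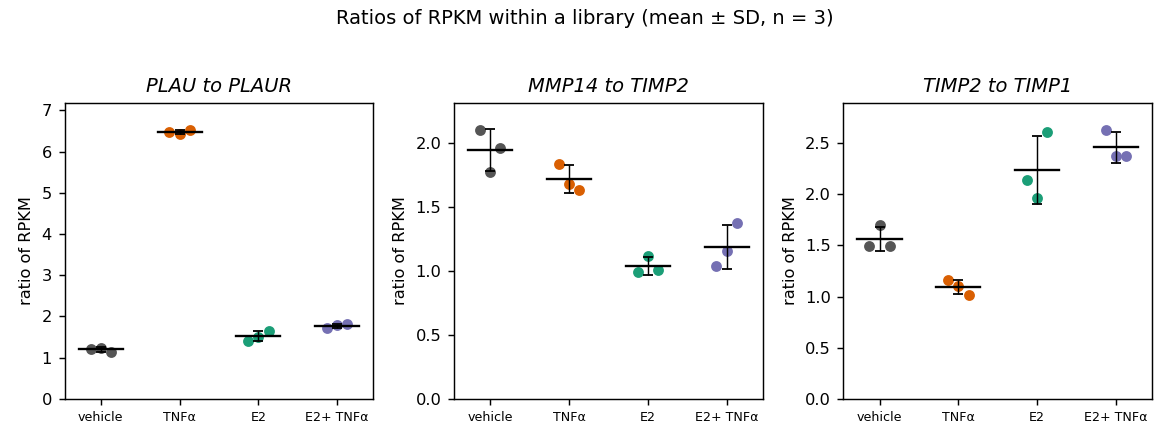
Ratios of RPKM between pairs of genes within each library, by group; each point is a library, with the mean and SD of 3 replicates. PLAU to PLAUR is near 6.47 in the TNFα group, and TIMP2 to TIMP1 is near 1.09 there and above 1.9 in both E2 groups.

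The wider protease system was described by 84 other genes, of which 64 were in the table and 56 were tested. By E2 relative to vehicle 14 were induced and 9 repressed, by TNFα 8 and 9, and by E2+ TNFα 12 and 8. Beside the shares over all genes, 9.87%, 6.64% and 7.52% induced and 20.6%, 20% and 17.6% repressed, the repressed counts were not above the background and the induced counts were above it. These shares are descriptions, and no test of the list was made. The median log2 fold change of these 56 was 0.24, 0.33 and 0.49. In E2+ TNFα relative to TNFα 5 were induced and 2 repressed, beside 3.55% and 2.01% of all genes, with a median of 0.38, and in E2+ TNFα relative to E2 0 of the 56 were called by edgeR and 0 by DESeq2, while 9 had an unadjusted p below 0.05, beside 19.4% of all genes, with a median of 0.01. In the interaction 10 were induced and 7 repressed, beside 22.5% and 9.29% of all genes.

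PRSS23, a secreted serine protease, was among the 5 genes induced in E2+ TNFα relative to TNFα. It was read at 191 to 209 CPM with vehicle, 190 to 193 with TNFα, 2286 to 2580 with E2 and 2111 to 2677 with E2+ TNFα. In E2+ TNFα relative to TNFα it was induced by a log2 value of 3.64 (SE 0.12, adjusted p = 1.33e-11, edgeR). ADAM12, a membrane-anchored metalloproteinase, was induced by 4.51 from 0.450 ± 0.24 CPM. It passed the RPKM filter through 2 E2 and 2 E2+ TNFα libraries and no other, so this call is not independent of the filter. DPP4, a membrane dipeptidyl peptidase, was induced by 3.45 from 0.610 ± 0.34 CPM with TNFα (SD, n = 3). ADAM19 went from 132 ± 12.3 to 504 ± 41.2 CPM, and the lysosomal aspartic protease CTSD from 492 ± 28.9 to 1485 ± 372 CPM. CTSD was called at 1.59, and that call was lost without E2+ TNFα replicate 3 (1.37) and with the unwanted factor removed (1.44). HTRA1, a secreted serine protease, was repressed by -1.99, from 14.2 ± 1.94 to 3.61 ± 0.93 CPM. Vehicle means entered none of the fold changes in this paragraph, and levels with vehicle are given for PRSS23 alone.

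Several further genes of the system were called relative to vehicle. SERPINA5, the protein C inhibitor, was induced by 4.40 with TNFα and PCSK6, a proprotein convertase, by 2.59, while ADAM9 was repressed by -3.29 and DPP4 by -2.93. With E2, PRSS23 rose by 3.59, SERPINA5 by 3.47 and CTSD by 3.06, and SERPINB2 was repressed by -3.28 and CTSK, the cathepsin of osteoclasts, by -2.62. Of the 56 genes, MMP12 and CTSK passed the RPKM filter through the vehicle libraries only, so their calls relative to vehicle are not independent of the filter. SERPINA5 passed through the 3 TNFα libraries and 1 E2+ TNFα library, which bears on its calls with TNFα and E2+ TNFα. It had 8 to 9 counts with vehicle. For MMP2 and PCSK6 no vehicle library reached an RPKM of 1. CTSK had 108 to 127 counts with vehicle and 0 to 12 with E2, and leaving out 1 library moved it to between -4.00 and -2.23. When the unwanted factor was removed, the calls in E2 relative to vehicle were lost for MMP2 (2.36, adjusted p = 0.158, edgeR) and SERPINA5 (2.31, adjusted p = 0.239, edgeR), which stayed past the fold change threshold, and for CTSD (1.43), SERPINB2 (-1.39) and CTSK (-1.42), which did not. With E2+ TNFα, ADAMTS6 was repressed by -2.06, a call lost with the GC and length trend removed (-0.68) and with the unwanted factor removed (-0.99). ANXA2 and S100A10, which form the complex that holds plasminogen at the membrane, were called in opposite directions in E2+ TNFα relative to vehicle, at -1.51 and 1.97. ANXA2 was repressed by TNFα (-1.96) from 2387 ± 119 to 616 ± 69.5 CPM, and S100A10 was induced by E2 (2.56) from 258 ± 8.45 to 1523 ± 362 CPM. All 4 of these calls were lost with the unwanted factor removed. The call of ANXA2 with E2+ TNFα was also lost without E2+ TNFα replicate 3 (-1.497), with no filter (-1.49) and with the compared groups only (-1.48), and that of S100A10 with the GC and length trend removed (1.22). In E2+ TNFα relative to TNFα their log2 fold changes were 0.44 for ANXA2 and 0.58 for S100A10, under the fold change threshold. RECK, a membrane inhibitor of MMPs, was repressed by TNFα (-1.57), a call lost with the GC and length trend removed (-0.31, adjusted p = 0.182, edgeR) and with the unwanted factor removed (-1.18). FURIN, which activates pro-MMP14, was read at 247 to 456 CPM, BSG at 614 to 1280 CPM and the matriptase gene ST14 at 3.79 to 5.92 CPM in group means.

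The genes whose level across the 12 libraries was most like that of PLAU were HBEGF (Pearson r of log2 values 0.99), VDR (0.99) and PHLDA1 (0.99), and 60 genes had an r above 0.95. For TIMP3 these were PPME1, SSRP1 and PLAAT3, with 53 genes above 0.95. MMP3 had MMP1 as the third gene most like it (r = 0.99). With MMP1, 902 genes had an r above 0.95. PLAUR had 1 gene above 0.95, SLC25A22. Among the members, PLAU and TIMP3 had an r of 0.94, PLAU and PLAUR 0.82, and TIMP2 and TIMP3 -0.01. These coefficients describe 12 libraries in 4 groups that share their treatment, and no test was made of them.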

How the data were processed

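RNA was sequenced from MDA-MB-231-ERβ cells by the authors as stranded, paired-end mRNA libraries. The submitters' processing notes name TopHat2 2.1.0, featureCounts and hg38, with no strand setting. The deposited values are whole-number counts of reads per gene, without normalization or batch correction. The study's methods describe a correction with RUVseq that is not in them. Of 12567 entries, 46 exact repeats and 70 repeats of a locus were removed. Count totals of 7.65 to 39.9 M per library bound the precision, and counting error alone was small except for genes with few reads. Genes entered the tests where 3 or more libraries reached an RPKM of 1.

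After TMM scaling, a single fit of 4 group means was tested by quasi-likelihood F in edgeR 4.0.16 (R 4.3.3) at the study's thresholds. DESeq2 1.42.0 was an alternative, as were size factors of DESeq2, library size only, other filters, the replicate block, 1 unwanted factor from 20 housekeeping genes as in RUVg, subtraction of loess trends on GC content of exons and on length (span 0.3), the compared groups only, and each library left out. In simulated data for E2 relative to vehicle (11303 genes, 200 changed by a log2 value of 2), 197 were recovered with 0 false calls. That setting changed far fewer genes than the 3447 called in the data, so it gives no error rate for these data. Genes named beside the 9 were 13 fixed inhibitors, activators and MMPs and, per pairwise comparison, up to 3 largest rises and 3 largest falls of the lists past the thresholds with at least 1 CPM and no overlap; ADAM19 and CTSD in E2+ TNFα relative to TNFα were named after their values were seen. MMP13 was not analysed here, and 1 of the 13 and 1 cell type marker are not reported here. The members and lists were chosen with earlier results of these data known. The labels do not say whether replicates were separate cultures beyond dishes, so p-values cover the spread between these dishes.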

Additional observations from a re-analysis of the deposited data

Results flagged for a closer look

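The effect of TNFα differed with and without E2 for 4 of the 8 genes tested, by the interaction term of the edgeR fit and with the fold change threshold. Over all genes, 22.5% were induced and 9.29% repressed in that term. Without the fold change threshold TIMP3 (-1.22, adjusted p = 1.3e-05), TIMP2 (-0.91, adjusted p = 2.52e-04) and MMP14 (-0.53, adjusted p = 0.0379) also had an adjusted p of at most 0.1 (edgeR), beside 76.6% of all genes. Of genes of like GC content, 24 of 736 had as low a value as PLAU, 116 of 836 as TIMP1, and 4 of 952 and 1 of 887 had a higher one than MMP1 and MMP3. The value, TNFα effect with E2 minus TNFα effect without E2 on the log2 scale, was 4.74 for MMP1, 5.10 for MMP3, -2.32 for PLAU and -1.58 for TIMP1. For MMP1 and MMP3 the vehicle libraries alone were high. A batch of those libraries cannot be told apart from a change shared by the treated groups. For PLAU the fall in E2+ TNFα relative to TNFα, -2.00, is a difference of means without the vehicle libraries. Removal of the unwanted factor left -1.51 for PLAU, past the thresholds, and -0.41 for TIMP1, not past them (adjusted p = 0.541, edgeR). The part of a vehicle batch in the interaction was not tested.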

How the results depend on the processing

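For MMP1 and MMP3 relative to vehicle, PLAU with TNFα relative to vehicle, PLAU in E2+ TNFα relative to TNFα, and all 3 in the interaction, every alternative kept the direction and the call. The count of members called in E2+ TNFα relative to TNFα was 1 and became 2 with no filter, where MMP9 was added. MMP9 likewise took the count from 3 to 4 for TNFα relative to vehicle and from 4 to 5 in the interaction. Leaving out 1 library left the counts of members called at 2 for E2, 3 for TNFα and 2 for the combination against vehicle, 1 for E2+ TNFα against TNFα and 0 against E2, and at 3 to 4 in the interaction. The TIMP1 interaction fell under the fold change threshold with library size only (-1.25), with the unwanted factor removed (-0.41), with the GC and length trend removed (-0.70, and -0.69 with the block) and without TNFα replicate 3 (-1.48); the cause was not tested.

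Log2 fold changes that changed sign belonged to members under the fold change threshold, and to MMP12. With the unwanted factor removed they were -1.07 (MMP14), -0.47 (TIMP1), -0.42 (TIMP3) and -0.58 (PLAU) for E2 relative to vehicle, -0.34 (MMP14) and -0.22 (PLAUR) for TNFα, and -0.61 (MMP14), -0.39 (TIMP1) and -0.44 (PLAUR) for E2+ TNFα. They were 0.045 (MMP1) for E2+ TNFα against TNFα, 0.073 (TIMP1) and 0.12 (TIMP2) against E2, and 0.80 (MMP14) and 0.71 (PLAUR) in the interaction. MMP12 came to 6.62 (E2), 1.87 (TNFα) and 2.41 (E2+ TNFα) with the same setting, all relative to vehicle. With the GC and length trend removed they were -0.31 (MMP14), -0.062 (TIMP1, and -0.064 with the block) and -0.37 (PLAU) for E2, -0.032 (MMP14, and -0.033 with the block) and -0.15 (PLAUR) for TNFα, -0.17 (MMP14), -0.15 (TIMP1) and -0.29 (PLAUR) for E2+ TNFα, and 0.17 (MMP14) and 0.51 (PLAUR) in the interaction. With library size only they were -0.29 (TIMP3) and -0.043 (PLAU) for E2, -0.0056 (PLAUR) for E2+ TNFα, 0.018 (MMP1) and 0.0066 (TIMP2) for E2+ TNFα against E2, and 0.21 (PLAUR) in the interaction. PLAUR came to 0.0036 for E2 with no filter. Without 1 library, TIMP3 for E2 ranged from -0.015 to 0.12, MMP1 from -0.28 to 0.051 for E2+ TNFα against TNFα and from -0.32 to 0.17 against E2, and MMP14 from -0.10 to 0.19 against E2. The cause was not tested.

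Replicate numbers did not pair the samples: the deviations of same-numbered libraries correlated at -0.522 to 0.504 over 18 pairs, and those of other pairs at -0.599 to 0.706 over 36. The replicate block changed no call of a member.

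Of all genes, 3447 were called for E2 relative to vehicle (32.4% of them induced), 3016 for TNFα (24.9%), 2837 for E2+ TNFα (30%) and 3593 in the interaction (70.8%). With the unwanted factor removed these were 1128 (55.1%), 1022 (34.1%), 1094 (55.2%) and 676 (59.3%), with the GC and length trend removed 1572 (53.2%), 1183 (47.2%), 1238 (52.7%) and 1548 (51.6%), and with library size only 3609 (17.5%) for E2 and 3647 (83.8%) in the interaction. For E2+ TNFα against E2, 46 genes (95.7%) became 24 where 10 counts were asked of every library, 101 (36.6%) with the unwanted factor removed, 30 with the compared groups only, 84 without E2 replicate 3, and 44 (81.8%) without E2+ TNFα replicate 1. Library size only moved the median of all genes to -0.38 for E2, -0.19 for TNFα and -0.26 for E2+ TNFα. The alternatives for MMP9 and for genes outside the 9 members were chosen after seeing the data. MMP9, MMP10, MMP12 and CTSK rest on few counts, so their fold changes are imprecise. SERPINA5 had 8 to 9 counts with vehicle, and DPP4 and ADAM12 had 7 to 22 and 9 to 14 with TNFα. Their fold changes against those groups are imprecise too.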
